A study of Homo sapiens with 7 samples.

Results

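Coding sequence peaks of N6-methyladenosine (m6A) in very long exons made up 2087 of the 12769 peaks in the table for untreated HepG2 cells (per the label), a line from a human liver carcinoma. They were chosen by the authors' own annotation of each peak, which had to give the coding sequence as its segment and an exon of 1500 nt or more. That length counts the whole exon with any untranslated part, so the coding stretch can be much shorter. These peaks were 45.9% of the 4547 coding sequence peaks (95% Wilson interval 44.5 to 47.3%). They lay in 1178 exons of 1138 transcripts of 1136 genes. A further 2070 coding sequence peaks lay in exons of 400 to under 1500 nt and 390 in exons under 400 nt. The cells' polyadenylated RNA, fragmented to about 100 nt, gave 4 libraries precipitated with an anti-m6A antibody and 3 input libraries. The authors deposited 1 table for all 7 libraries together, with no value per library. Depth and the spread between replicates are therefore unknown, and no test over samples was possible. The intervals below cover only counting error or, for medians, the sampling of peaks. They treat peaks as independent. Peaks of 1 exon share their RNA and are not replicates, so the intervals may be too narrow.

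Expression in the table was a quantile from 0 to 1, which ranks transcripts and is no level. Of 8 hepatocyte markers, 5 were tied at the lowest quantile of 0.314, among them ALB (albumin), AFP (alpha-fetoprotein) and APOB (apolipoprotein B). The other three were APOA1 at 0.403, HNF4A at 0.509 and FGB at 0.619. Of 11 markers of other lineages, 4 were at the lowest quantile, and 4 were between 0.333 and 0.496, namely WT1, TP63, the melanocyte marker SILV (now PMEL) and PAX8. The remaining ones were the mucin MUC16 at 0.667, the lung factor NKX2-1 at 0.696 and the melanocyte factor MITF at 0.703. The cell line is named here as its label gives it, and the part of this in the results was not tested.

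m6A is laid down on nascent messenger RNA by a methyltransferase complex built around METTL3 and METTL14, at adenosines inside the consensus RRACH, where R stands for either purine and H for any base but G. In mammalian cells the mark is known to gather in long internal exons and near stop codons. YTH domain proteins bind it and can lead the RNA to decay. Exons of this length that hold coding sequence are rare. Their coding parts often encode repeats or disordered stretches, as in zinc finger arrays, cadherin domains and nuclear scaffolds.

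The sequences around the strongest of these peaks are shown for 7 genes, since they are among the places where the authors' score was highest among transcripts that could be aligned with GENCODE. Each run covers 101 nt centred on the listed position, written as DNA (T for U), and capitals mark every RRACH site, overlapping sites included. Coordinates are GRCh38, from the GENCODE release 29 transcript. All lie in coding exons.
KIAA0240 (chr6:42829638-42829738, plus strand): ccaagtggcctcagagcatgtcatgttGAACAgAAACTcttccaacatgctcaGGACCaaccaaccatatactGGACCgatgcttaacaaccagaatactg
FGD6 (chr12:95209874-95209974, minus strand): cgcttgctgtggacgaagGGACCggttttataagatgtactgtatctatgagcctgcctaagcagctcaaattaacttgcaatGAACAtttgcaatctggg
ZSWIM4 (chr19:13830297-13830397, plus strand): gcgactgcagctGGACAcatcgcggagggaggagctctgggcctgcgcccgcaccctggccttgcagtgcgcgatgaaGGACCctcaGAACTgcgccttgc
PCNX (chr14:70978309-70978409, plus strand): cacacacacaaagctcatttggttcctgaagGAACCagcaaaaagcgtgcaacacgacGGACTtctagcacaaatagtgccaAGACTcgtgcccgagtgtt
ZNF33B (chr10:42594219-42594319, minus strand): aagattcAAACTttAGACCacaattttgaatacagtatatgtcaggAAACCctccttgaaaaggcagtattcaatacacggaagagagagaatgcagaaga
DBF4 (chr7:87907561-87907661, plus strand): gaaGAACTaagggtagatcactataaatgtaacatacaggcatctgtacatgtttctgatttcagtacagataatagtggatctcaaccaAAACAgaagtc
AMIGO2 (chr12:47078787-47078887, minus strand): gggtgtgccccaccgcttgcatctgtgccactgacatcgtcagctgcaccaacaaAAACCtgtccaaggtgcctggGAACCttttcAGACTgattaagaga
The peak of KIAA0240 (now BICRAL, a subunit of a BAF chromatin remodelling complex) scored 7.04 and had 4 RRACH sites in its window. FGD6, an exchange factor for the GTPase Cdc42, scored 6.07 with 2 sites. ZSWIM4 scored 5.70, the pecanex protein gene PCNX 5.60 and the zinc finger gene ZNF33B 5.23, with 3 sites each. DBF4, the activator of the replication kinase CDC7, scored 5.19 with 2 sites, and the adhesion protein gene AMIGO2 scored 5.18 with 3 sites. The window of ZNF33B shared a 30-nt stretch with 1 other coding gene, so reads there could come from either.

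The highest score among all 2087 peaks belonged to YTHDF3, an m6A reader, at 7.27 (chromosome 8, 64243675 to 64287900, plus strand). It lay at position 885 of the transcript in exon 5 (1572 nt), and a second peak in the same exon at position 1385 scored 5.32. KIAA0240 came next at 7.04, in exon 5 of 1680 nt, and its other two peaks in that exon scored only 2.04 and 2.23. DCUN1D3, which regulates cullin neddylation, scored 6.63 in exon 3, C3orf17 scored 6.57 in exon 9, and DAPK1, a calmodulin-regulated death-associated kinase, scored 6.51 in exon 26. SON, a splicing cofactor of nuclear speckles, scored 6.32, CHD7, a chromatin remodeller, 6.26, and WDR32 (now DCAF10) 6.25. MED18, a subunit of Mediator, scored 6.22, and SOCS6, an inhibitor of cytokine signalling, 6.21. Of these 10 genes 6 had no further peak in a long coding exon. Their expression quantiles ran from 0.579 in DCUN1D3 to 0.906 in DAPK1. Positions count from the 5' end of the transcript, and coordinates outside the printed sequences are those of the table, whose build is not given in the sources used here.

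Scores, which are the authors' own on an unstated scale, ran from 2.00 to 7.27 in long exons, with a median of 3.12 (quartiles 2.54 and 3.95). Of the 2087 peaks, 944 scored under 3 (45.2%) and 16 scored 6 or more (0.767%). Coding sequence peaks in exons of 400 to under 1500 nt had a median of 3.25 (quartiles 2.57 and 4.10), and those in exons under 400 nt 2.73 (quartiles 2.30 and 3.33). The median in long exons was thus 0.14 below that of the middle class (difference -0.14) and 0.39 above that of the short class. The first of these differences was not stable. It was 0.093 among transcripts with an expression quantile over 0.9, and 0.089 when only the highest-scoring peak of each gene was kept, so its direction turned in both. The second difference was not computed under these settings. Scores went with crowding. The median score was 3.30 where a long exon held a single peak, 3.15 where it held 2, 3.02 for 3 and 2.97 for at least 4. The highest score per exon ran the other way, with medians of 3.30, 3.78, 3.84 and 4.05 in the same 4 sets, where a highest value is taken over more peaks. These sets also differed in median expression quantile (0.703, 0.721, 0.739 and 0.807) and median exon length (2377, 2710, 2645.5 and 3628 nt). Neither was held fixed. The median score was 3.43 below an expression quantile of 0.6 (3.285 to 3.596, 298 peaks) and between 3.03 and 3.10 in the 4 bins above it. The interval of the lowest bin lay above those of all 4 others, which overlapped each other. These intervals treat peaks of 1 exon as independent, so this is no test of a difference.

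**Figure D1:**
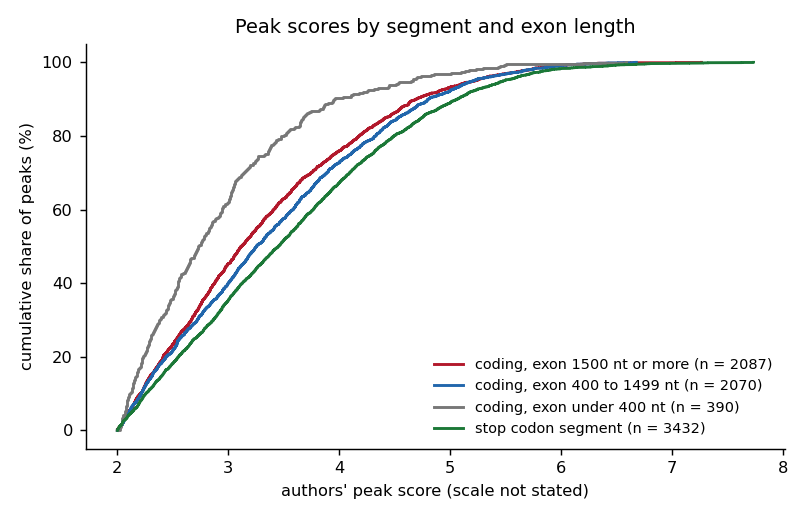
Cumulative share of peaks (y axis, percent) at or below each authors' score (x axis) for coding sequence peaks in exons of 1500 nt or more, of 400 to under 1500 nt and under 400 nt, and for stop codon peaks. The curve of long exons lies close to that of the middle class, with medians of 3.12 and 3.25, between the short class (2.73) and stop codon peaks (3.45).

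Within the same transcript, peaks of long coding exons more often scored below stop codon peaks and above other coding sequence peaks. In 379 transcripts with both kinds, the median of the per-transcript scores was 3.11 for the long exons and 3.49 for the stop codon. The long exon was higher in 149 of them (39.3%, 34.5 to 44.3%), and the median difference was -0.30. In 183 transcripts that also had coding sequence peaks in shorter exons, the medians were 3.34 in long and 2.97 in shorter exons, and the long exon was higher in 114 (62.3%, 55.1 to 69.0%). A stop codon peak was listed in 33.3% of the 1138 transcripts with a peak in a long coding exon (30.6 to 36.1%), and in 33.8% of 1357 transcripts whose coding peaks lay in exons of 400 to under 1500 nt with none in a long one (31.3 to 36.3%). In 293 exons the stop codon peak and a coding sequence peak were in the very same long exon. Peaks at the transcript start were listed in 5.27% of the first set (4.12 to 6.73%) and 9.06% of the second (7.65 to 10.7%). In 490 of the 1138 transcripts (43.1%) all listed peaks were coding sequence peaks in long exons.

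Many long exons carried several separate peaks. Of the 1178 exons, 660 held a single peak, 300 a pair, 122 held 3 and 96 at least 4, so 1427 of the 2087 peaks (68.4%, 66.3 to 70.3%) shared their exon with another. With a stricter minimum score of 3 this share was 45.8%. The 909 gaps between neighbours had a median of 494 nt (quartiles 325 and 761) and ran from 49 to 8937 nt. Only 34 were under 200 nt (3.74%). In exons with several peaks the scores differed by a median of 1.12 between the highest and the lowest.

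By count, not divided by the length of coding sequence, the genes with most such peaks mostly encode giant mucin, scaffold, chromatin and splicing proteins. Density was not computed per gene. MUC16, a membrane mucin, had 14 in 3 exons, with scores from 2.09 to 4.12, and its highest lay at position 35920 in exon 5. AHNAK, a giant scaffold protein, had 12 in exon 5, with scores from 2.05 to 4.02. The highest was at the 5' end, at position 801, and none was listed between positions 1871 and 7618. In AHNAK2, a related scaffold, 10 peaks lay in exon 7 (17546 nt), and none was listed between positions 4023 and 12960. Neither AHNAK nor AHNAK2 was among the transcripts matched to GENCODE. Whether repeated sequence limits the reads in these stretches was not checked. SON had 10 peaks in exon 3 (5916 nt) between positions 709 and 5297, of which the peak at 2286 (6.32) stood above the other nine, which scored 2.02 to 3.99. MLL2, renamed KMT2D, which methylates lysine 4 of histone H3, had 10 in exons 10, 34 and 39. The 3 in exon 34 scored 3.94, 3.80 and 3.29 at positions 8675, 9179 and 9685, while exon 39 held 6 with scores of 2.05 to 3.37. ZFHX3, a homeobox transcription factor, had 10 in 3 exons, none above 3.40. PLEC1 (plectin, a linker of intermediate filaments) had 9 in exon 32, with a highest score of 3.97 at position 11843, and MLL (now KMT2A), a further methyltransferase, had 8, with its highest of 4.27 at position 8586 in exon 27. The longest exons with a peak after those of MUC16 (21693 nt), AHNAK (18173 nt) and AHNAK2 were exon 7 of KIAA2018, now USF3 (13040 nt, 3 peaks), and exon 4 of ZNF264 (11493 nt), whose 2 peaks scored 5.01 at position 778 and 3.37 at position 1840.

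**Figure D2:**
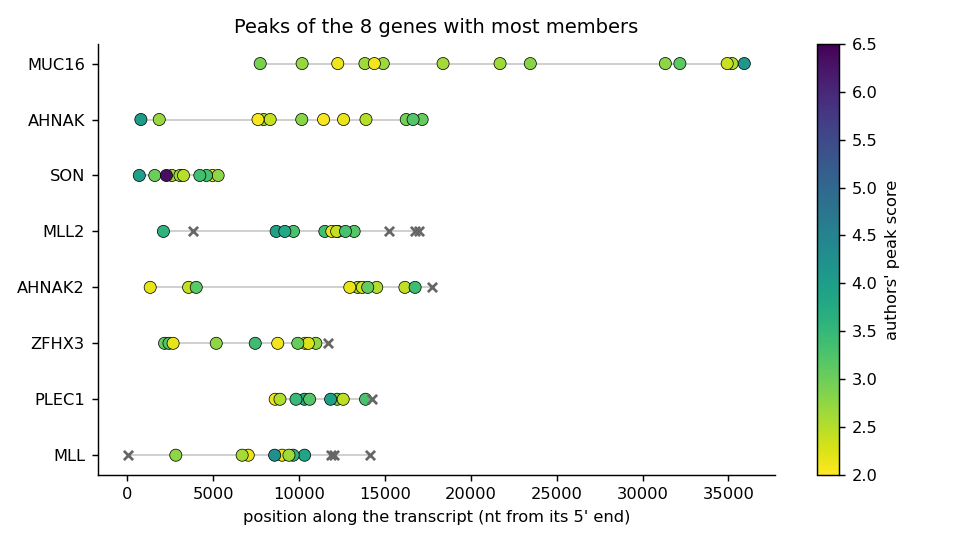
Peaks of the 8 genes with most peaks in long coding exons, by position along the transcript (x axis, nt). Circles are coding sequence peaks in exons of 1500 nt or more, coloured by the authors' score, and crosses are the transcript's other peaks. The 14 peaks of MUC16 span positions 7745 to 35920, and those of SON lie in exon 3 alone. AHNAK2 has a stretch without listed peaks between positions 4023 and 12960, where repeated sequence was not checked.

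Exon 1 of CELSR1, an atypical cadherin of planar cell polarity, shows such a cluster in sequence. It is 3544 nt long and held 6 peaks. Their scores were 4.41 at position 956, 4.56 at 1454, 4.64 at 1773, 3.10 at 2264, 4.004 at 2997 and 2.16 at 3484. The 101-nt windows are written as above.
CELSR1 position 956 (chr22:46536165-46536265, minus strand): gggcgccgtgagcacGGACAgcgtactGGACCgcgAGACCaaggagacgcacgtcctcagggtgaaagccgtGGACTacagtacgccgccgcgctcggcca
CELSR1 position 1454 (chr22:46535667-46535767, minus strand): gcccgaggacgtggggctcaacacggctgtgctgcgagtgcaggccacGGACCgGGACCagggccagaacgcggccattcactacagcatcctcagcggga
CELSR1 position 1773 (chr22:46535348-46535448, minus strand): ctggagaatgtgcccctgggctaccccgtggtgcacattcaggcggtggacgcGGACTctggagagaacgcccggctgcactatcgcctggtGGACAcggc
CELSR1 position 2264 (chr22:46534857-46534957, minus strand): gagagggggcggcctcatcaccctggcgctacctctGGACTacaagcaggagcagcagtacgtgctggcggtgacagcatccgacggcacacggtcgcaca
CELSR1 position 2997 (chr22:46534124-46534224, minus strand): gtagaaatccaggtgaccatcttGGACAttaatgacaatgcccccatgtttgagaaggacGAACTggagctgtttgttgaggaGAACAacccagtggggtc
CELSR1 position 3484 (chr22:46533637-46533737, minus strand): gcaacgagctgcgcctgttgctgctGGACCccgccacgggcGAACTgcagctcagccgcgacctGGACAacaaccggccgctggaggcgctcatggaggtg
Every window held at least 1 RRACH site, and 3 of the 6 held a GGACU. The lowest-scoring window, near the end of the exon, held 3 RRACH sites and no GGACU, so the number of sites did not order the scores.

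How far these peaks follow from exon length was read from transcripts matched to GENCODE by symbol, strand, genomic span and exon structure. These held 268 of the 2087 peaks in 123 transcripts, with a median score of 3.08. Among expressed matched transcripts, coding sequence outside the authors' start and stop segments carried 5.77 peaks per 10000 nt in exons of 1500 nt or more (exact Poisson interval 5.10 to 6.51, 268 peaks, of which 266 lay inside that stretch by position), 5.06 in exons of 400 to under 1500 nt (4.41 to 5.79, 216 peaks) and 0.25 in exons under 400 nt (0.19 to 0.34, 48 peaks). The density thus differed by over a factor of 10 between short and middle exons, while the intervals of the middle and long classes overlapped. Density in long exons went with expression. It was 0.14 in the lowest expression tertile (0.017 to 0.50), 7.23 in the middle one (6.13 to 8.47) and 10.4 in the highest (8.58 to 12.5). In exons of 400 to under 1500 nt the values in the same tertiles were 0.25, 6.47 and 9.49. Exons with more such coding sequence had a peak more often. Long exons with under 500 nt of such coding sequence had a peak in 12 of 179 cases (6.70%), those of 1000 to under 1500 nt in 27 of 63 (42.9%) and those of 2500 nt or more in 24 of 36 (66.7%, 50.3 to 79.8%), while the density across these bins stayed between 4.07 and 6.37 per 10000 nt.

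**Figure D3:**
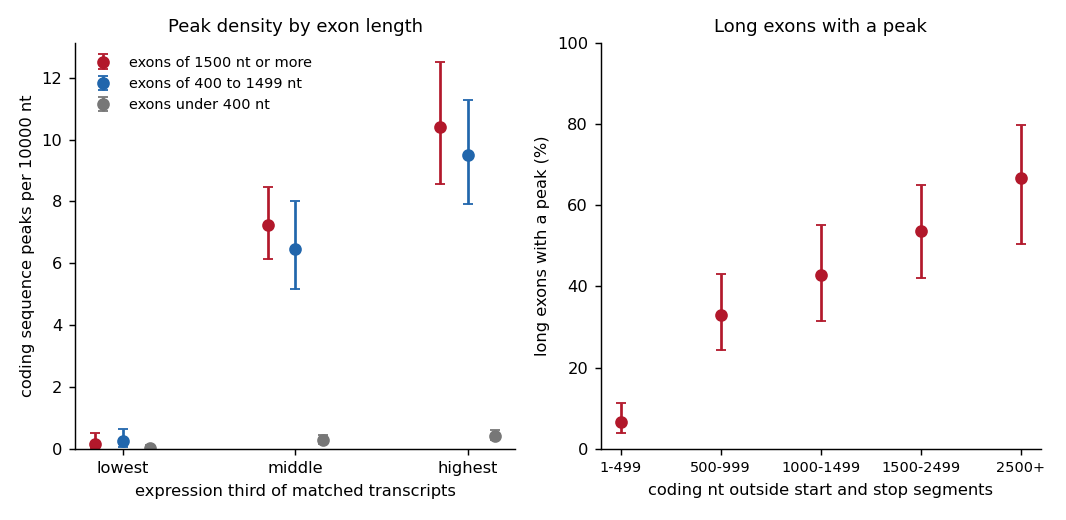
Left, coding sequence peaks per 10000 nt (y axis) by expression tertile (x axis) and exon length, with exact 95% Poisson intervals. Right, the share of long exons with a peak (y axis, percent, 95% Wilson intervals) by the coding nt outside the start and stop segments (x axis). Long exons reach 10.4 peaks per 10000 nt in the highest tertile, and the share of exons with a peak goes from 6.70% to 66.7%.

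Both internal and last exons held them. Of the 268 matched peaks, 126 lay in last exons (47.0%), 106 in internal (39.6%), 26 in first and 10 in only exons of their transcript. The densities were 5.48 peaks per 10000 nt in last, 6.54 in internal, 6.11 in first and 3.38 in only exons (1.62 to 6.21), with intervals that overlapped. Median scores were 3.19, 3.01, 3.27 and 2.62 in the same order. The 10 peaks of only exons had the lowest density and the lowest median score (2.33 to 3.05). Along the exon the peaks were spread widely. When the coding stretch was cut into 5 equal parts, these held 45, 51, 57, 55 and 58 peaks from 5' to 3'. The median distance to the stop codon was 1501 nt (quartiles 709 and 3901). Peaks in the authors' stop segment were left out by the choice of coding sequence peaks, so the shortest distances could not occur. Few lay beside a splice junction, with 10 of 268 under 100 nt from one (3.73%, 2.04 to 6.73%), where 8.02% of the coding nt of such exons lie.

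The consensus was found near nearly all of the matched peaks. RRACH lay within 50 nt of 252 of 268 (94.0%, 90.5 to 96.3%). For 226 peaks a window 300 nt away in the same exon, at least 150 nt from every listed peak, served as a control. RRACH was found in 94.7% of these peaks and 69.9% of their controls (63.6 to 75.5%), and 60 pairs had it at the peak only against 4 at the control only. GGACU was found in 26.1% of the peaks and 7.52% of the controls, with 55 against 13 discordant pairs. Base composition hardly differed, with a median GC content of 55.4% at the peaks and 56.4% at the controls. Coding sequence peaks in exons of 400 to under 1500 nt had RRACH in 92.2% (87.9 to 95.1%, n = 218 peaks) and GGACU in 35.8% (29.7 to 42.3%), against 26.5% for GGACU over all 268 peaks of long exons (21.6 to 32.1%). Scores of the matched peaks differed little by motif, with medians of 3.26 for 71 peaks with GGACU, 3.07 for 181 with another RRACH and 2.96 for 16 with none, and the intervals of these medians overlapped.

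**Figure D4:**
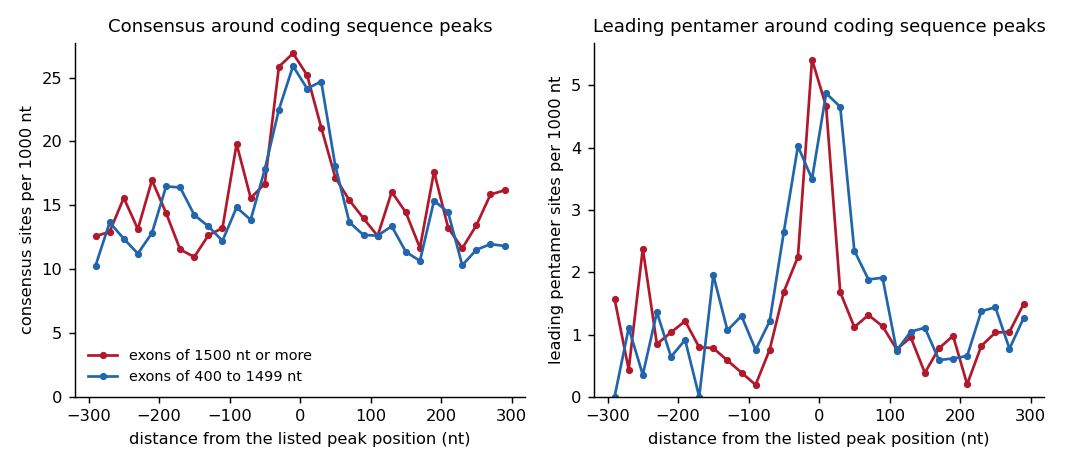
Sites of the consensus RRACH (left) and of its leading pentamer GGACU (right) per 1000 nt of coding sequence in the same exon (y axes), in bins of 20 nt by distance from the listed position (x axes), for 268 peaks in exons of 1500 nt or more and 218 in exons of 400 to under 1500 nt. In long exons RRACH reaches 26.9 and GGACU 5.42 sites per 1000 nt in the bin just upstream of the listed position.

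Not all forms of the consensus were more frequent near the peaks. Within 50 nt of the peaks RRACH occurred 23.2 times per 1000 nt, against 14.9 elsewhere in the same exons. GGACU was 3.90 times as frequent near the peaks as elsewhere (78 against 170 sites), AGACU 2.57 times, GAACU 2.47 times and GGACA 2.35 times. AAACA was 0.89 times as frequent near the peaks, AGACA 0.86 times and GAACC 0.84 times. Since these are coding exons, each GGACU also has a reading frame. Of the 78 near peaks, 51 (65.4%, 54.3 to 74.99%) spelled the aspartate codon GAC in frame, 16 the threonine codon ACU and 11 the glycine codon GGA. Elsewhere in the same exons 91 of 170 (53.5%, 46.04 to 60.9%) were in the aspartate frame, so the intervals overlapped.

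Genes with such peaks were read against the genes that could have them. Of all 24721 gene symbols, 1136 (4.6%) had a coding sequence peak in a long exon, and of the 17368 above the lowest expression quantile 6.54% had. Of 2770 expressed genes for which GENCODE gives a long exon with at least 200 nt of coding sequence outside the start and stop segments, 1070 had one, which is 38.6%. This share was 2.98% below a quantile of 0.5, 37.5% from 0.5 to 0.6, and between 53.1% and 60.9% in the 4 bins above 0.6. The 38.6% pools these bins and is not matched to the expression of any list, nor to the length of its coding sequence. In matched transcripts, 6.70% of long exons with under 500 nt of such coding sequence had a peak. With 2500 nt or more it was 66.7%. Gene lists below are given as the count among such eligible genes and are not tested. They were written with earlier results of these data known.

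Chromatin regulators had a peak in 24 of 25 eligible genes (96%), with 90 peaks in all, a median score of 3.30 and a median quantile of 0.800. CHD7 led with 6.26 in exon 38 and had 3 more peaks in exon 2 (3.14, 3.98 and 3.79). NSD1, a histone H3 lysine 36 methyltransferase, had 5, the highest 5.90 at position 3581. ASH1L, also a histone methyltransferase, had 2 of 5.64 and 3.31, both in exon 3, and the acetyltransferase MYST4 (now KAT6B) had 3, the highest 5.64. A list headed nuclear receptor coregulators had a peak in 8 of 9 eligible genes. Among them were PRR12 (4.99), TNRC18 (4.70), BCORL1 (4.13) and the Mediator subunit MED1 (3.90). The heading is loose, and whether each of these acts with nuclear receptors was not tested.

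RNA regulators followed. Of mRNA decay and small RNA genes, 6 of 7 eligible ones had a peak. TNRC6B, a partner of Argonaute in silencing, had 3 with a highest score of 5.43, and its paralogue TNRC6A had 6 in exon 6, with scores of 2.23 to 4.36. The ribonucleases ZC3H12C and ZC3H12A reached 4.74 and 4.40. Of splicing and elongation genes 10 of 13 had a peak, with SON at 6.32, the kinase CRKRS (now CDK12) at 5.24, RBM16 (now SCAF8) at 5.01 and DIDO1 at 4.67. Among the m6A machinery it was 5 of 7, and all 3 cytosolic YTHDF readers were among them. YTHDF3 had scores of 7.27 and 5.32, YTHDF2 of 3.21 and 4.18, and YTHDF1 of 2.79, 2.01 and 2.52, in exons of 1572, 1584 and 1521 nt. Of the writer subunits, RBM15B had 2 (2.62 and 3.64) and RBM15 had 1 (3.21), each in exon 1.

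Cell division and repair genes were smaller sets. All 5 eligible mitosis and centromere genes had a peak. They included ASPM, a spindle pole protein (4 peaks in exon 18, the highest 4.93), the centromere protector SGOL2 (4.72), the kinetochore scaffold CASC5 (4.24) and CENPF (3.91). Of the DNA repair list 7 of 11 had a peak, with RIF1 at 4.75, the polymerase REV3L at 4.11 and the nuclease scaffold BTBD12 (now SLX4) at 3.49. The list also counts ERCC6L (3.54), a helicase of mitosis rather than of repair. Of the growth factor, Wnt, Notch and cadherin list 12 of 22 had a peak, led by NOTCH1 (4.98), CELSR1 (4.64), CELSR2 (4.48) and FAT1 (3.98). The docking proteins IRS1 and IRS2 had 4 and 2 peaks, with highest scores of 3.92 and 2.96, among 4 eligible genes of that list.

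Other gene classes known for long coding exons stood near or under the pooled 38.6%, which is not matched for expression or coding length. Giant scaffold and cytoskeletal linker genes had a peak in 11 of 25 eligible genes (44%). They included CEP250, a centrosome linker (5.08), AHNAK, PLEC1 and the desmosomal protein DSP (3.96), but not MAP4, whose long exon was also eligible. Protocadherins had one in 4 of 23 (17.4%), which were PCDH7 (5.64), PCDHB14 (2.77), PCDH9 (2.55) and PCDHB13 (2.07), and not PCDHB15, the most expressed eligible one without a peak. In the same order their expression quantiles were 0.724, 0.485, 0.499, 0.493 and 0.558. Among all eligible genes the share with a peak was 2.98% below a quantile of 0.5 and 58.7% from 0.8 to 0.9. The median quantile of the scaffold list's peaks was 0.878. Of 106 genes with an RPL or RPS prefix 2 were eligible, too few to set against the background, and 1 of these had a peak. It was RPS6KC1 (3.80), a kinase-like gene and no ribosomal protein.

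C2H2 zinc finger genes, whose fingers are often encoded in a single last exon, supplied more of the peaks than the other lists. The list was drawn by name prefix, so C2H2 genes with other names are counted among the others. Listed genes were 162 of the 1136 genes and held 256 of the 2087 peaks. Among eligible genes, however, 160 of 404 (39.6%) had a peak, which is near the background of 38.6%. Their peaks had a median score of 2.95 (2.83 to 3.07), against 3.15 (3.09 to 3.21) for the 1831 others. Their median quantile was 0.669, against 0.754 for the others, and their exons had 1.55 peaks on average, against 1.81. ZNF507 reached 5.90 in exon 2 and had 3 more peaks. ZNF639 scored 5.82, ZBTB2 5.73 and ZNF746 5.34. Of the 24 matched C2H2 peaks, 17 lay in genes whose protein has the TGEKP linker between fingers (R allowed for K). In 10 of these the peak was upstream of the first linker, and in 4 a linker lay within 50 nt. Some of these genes, such as ZBTB39, have only 1 linker. The share of coding sequence upstream of the first linker was not measured, so these counts show no preferred place. Zinc finger repeats resemble each other between genes. Over all 268 matched peaks, 7 windows (2.61%) shared a 30-nt stretch with another coding gene, 2 of them in C2H2 genes, and the counting of such reads is not given in the sources used here.

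**Figure D5:**
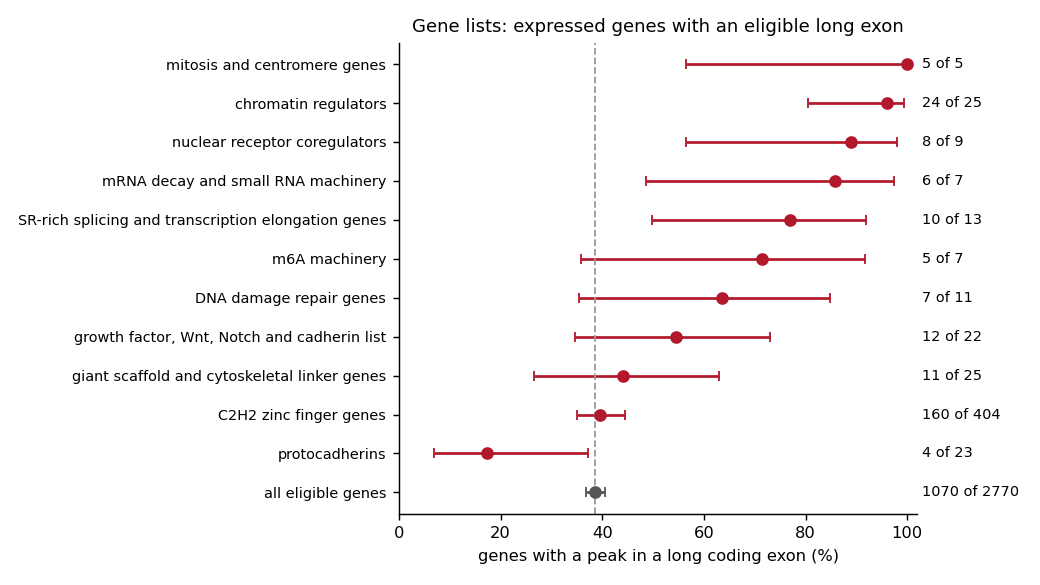
Share of expressed genes with an eligible long coding exon that had a peak there (x axis, percent, 95% Wilson intervals) for each gene list with 5 or more such genes, and for all eligible genes at the bottom, whose 38.6% is the dashed line. The dashed line pools genes of unlike expression and coding length and is not matched to any list. Chromatin regulators stand at 24 of 25, C2H2 zinc finger genes at 160 of 404 and protocadherins at 4 of 23.

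The limit of 1500 nt cut a continuum. The exon just inside was exon 1 of CNNM4 at 1500 nt, with 3 peaks of 3.57, 2.05 and 4.34. Just outside were exon 25 of SRCAP, 1 nt under the limit, with peaks of 4.02 and 4.89, and exon 10 of CAND1 at 1494 nt, with a peak of 4.75.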

How the data were processed

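Per the labels' protocols, poly(A) RNA was chemically fragmented, precipitated with an anti-m6A antibody or kept as input, and sequenced. Grouping of the 4 immunoprecipitated and 3 input libraries follows their titles. Per the file headers, the authors deposited 1 table with a count of peaks per transcript, an expression quantile (a fraction from 0 to 1) and, for each peak, position, exon number, exon length, segment and a score of unstated scale. Which aligner, peak caller and build were used is not given in the sources used here. No column belongs to a library, so depth is unknown and no test was made.

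Peaks were read with Python 3.11.15 and pandas 2.3.3, and exact intervals came from scipy 1.17.1. Transcripts were matched to GENCODE release 29 (GRCh38) by current or older symbol, chromosome, strand, exact span and, where they had peaks, by exon number, exon length and position. Of the 2598 matched, those without peaks could not be checked by exons, so densities may be too low. Eligible coding sequence leaves out 200 nt at the transcript start and 200 nt on either side of the stop codon. It held 99.3% of the authors' coding sequence peaks. Intervals of medians are binomial order-statistic intervals, which treat each peak as independent. The code for matching and motif counts was run on peaks planted in transcripts already matched. This checks that planted peaks and motifs come back, and cannot show whether a wrong transcript was matched.

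The text names the 10 top-scoring genes, the 8 with most peaks, the 5 with the longest exon, up to 4 of each list by score, the most expressed gene of each list lacking a peak (given only where it has an eligible long exon), those at the length limit, and those with printed sequence (the highest-scoring matched peaks outside chromosome 8). YTHDF1, CELSR1 as a sequence example and the gaps in AHNAK and AHNAK2 were chosen after their values were seen. A few genes and sequences falling under these rules are not reported here. Members and lists were chosen with earlier results of these data known.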

Additional observations from a re-analysis of the deposited data

How the results depend on the processing

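Values per library were not analysed here, since the table combines them, so leaving out a replicate was not possible, and what depth limits cannot be told. No paired analysis was possible because the table has no column per library. Of 42 alternatives, 27 stayed within the interval of the reported value (for the count, within 1.5 times), 13 moved and 2 reversed. Some of those that stayed could hardly move. Lists without a gene at the lowest quantile kept the same genes, and 1 transcript per symbol kept 2083 of 2087 peaks. The list alternatives covered all genes of each list, not the eligible ones. The score difference from exons of 400 to under 1500 nt reversed to 0.093 above an expression quantile of 0.9 and to 0.089 with 1 peak per gene. In the same settings the median score was 3.06 and 3.57. The share of peaks sharing their exon moved to 64.9% at 1000 nt, 70.8% at 2000 nt and 45.8% with scores of at least 3. RRACH near the peak was at 75.4% within 25 nt and 98.5% within 100 nt. DRACH, with U also allowed first, was at 97.4% and GGACU at 26.5%. Control windows 500 nt away had RRACH in 77.4%. Peak density was 4.22 per 10000 nt with spans matched within 10 nt, which added transcripts, and 3.12 with scores of at least 3, which removed peaks. Of C2H2 genes above the lowest quantile, 32.4% had a peak, against 27.9% of all. Causes of the other shifts were not tested. The number of peaks was 2740 at 1000 nt, 1577 at 2000 nt and 2083 with 1 transcript per symbol.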
